A study of Mus musculus with 4 samples.

Results

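Gata4, Nkx2-5, Tbx5, Hand2, Mef2c and Tbx20 encode the core transcription factors of the heart, and they are described here with the transcripts found around them in sham-operated adult mouse heart. The transcript models in the files are known by UCSC identifiers, and symbols are not among their labels. Each gene was therefore taken by its position on mm9, as the locus with a UCSC model and the highest mean count that overlaps the gene's interval, which gave 6 of 35299 loci. In 5 of the 6 intervals this was the single locus with a UCSC model. The Tbx5 interval held 1 further such locus, on the opposite strand.

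The libraries came from 1 group, Sham: heart of C57BL/6J mice aged 12 weeks, collected 2 weeks after a sham operation at the site that corresponds to the border of an infarct, in 4 biological replicates, with poly(A)-selected RNA read as pairs of 100 bases. No genetic change or drug is named, and whether a replicate is 1 animal or a pool is not given in the sources used here. The free-text description of replicate 4 names an infarct border without the word sham, unlike its title, source name and treatment, and the column names 3RL, 7LR, 8R and 12RL are in no label, so the library of that replicate is not known. With 1 group there is no contrast between conditions, and each value below is a level, its spread over the 4 libraries or a comparison between loci. The table held 108345923 to 160670654 recovered reads per library.

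These factors belong to different families of DNA-binding proteins and act as a network. GATA4 is a zinc finger protein, NKX2-5 a homeodomain protein, TBX5 and TBX20 are T-box proteins, HAND2 is a basic helix-loop-helix protein and MEF2C a MADS-box protein. They bind together at enhancers of contractile and other cardiac genes, are needed to form the heart in the embryo, and continue to be expressed in adult heart muscle. Sets of them, such as GATA4, MEF2C and TBX5, are known for turning cultured fibroblasts into cardiomyocyte-like cells.

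The names were checked by structure, without converting a coordinate, against GENCODE M21 on GRCm38. Every internal exon length of the UCSC models was found in the GENCODE gene of the same symbol, chromosome and strand: 6 of 6 for Gata4, 7 of 7 for Tbx5, 11 of 11 for Mef2c and 6 of 6 for Tbx20. The UCSC models of Nkx2-5 and Hand2 have 2 exons, and for each the length of the 1 intron was found. For Mef2c, 9 of 17 intron lengths were found. Other marker genes of the heart carry no symbol in these files and were not used to check the tissue label.

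All 6 genes were read in all 4 libraries. Gata4, which partners with many cardiac factors, had the highest mean count, although Tbx20 was above it in 7LR and Nkx2-5 in 12RL. Its locus at chr14 63817752 to 63895486 on the minus strand had 16768 normalised read counts (3RL), 14218 (7LR), 16402 (8R) and 16954 (12RL). Library 7LR lay below the other 3, which differed little. The mean was 16086 ± 1266 (SD, n = 4).

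Nkx2-5, the homeodomain factor of cardiac progenitors and of the conduction system, lies at chr17 26956834 to 26978510 on the minus strand. It had 12985 counts (3RL), 14030 (7LR), 13643 (8R) and 17769 (12RL), with a mean of 14607 ± 2152 (SD, n = 4). Here 12RL lay above the other 3.

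Tbx20, a T-box factor that can repress as well as activate and is needed in adult cardiomyocytes, lies at chr9 24520421 to 24578906 on the minus strand. It had 13681 counts (3RL), 14592 (7LR), 13992 (8R) and 15139 (12RL), and a mean of 14351 ± 647 (SD, n = 4). The highest library was 1.11 times the lowest.

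Mef2c, a MADS-box factor that drives muscle genes, lies at chr13 83643194 to 83806971 on the plus strand. Its counts were 10318 (3RL), 11146 (7LR), 9856 (8R) and 10466 (12RL), with a mean of 10447 ± 533 (SD, n = 4). The 4 libraries were about as close as for Tbx20, with the highest at 1.13 times the lowest.

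Hand2, the basic helix-loop-helix factor best known for building the right ventricle, lies at chr8 59799780 to 59803314 on the plus strand. It had 3174 counts (3RL), 4550 (7LR), 6553 (8R) and 4828 (12RL), and a mean of 4776 ± 1388 (SD, n = 4). Of the 6 genes Hand2 differed most between libraries, with 8R at 2.06 times 3RL.

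Tbx5, a T-box factor of the forelimb and of the heart, lies at chr5 120281731 to 120335375 on the plus strand and had the lowest mean. The counts were 4739 (3RL), 3225 (7LR), 4082 (8R) and 4120 (12RL), with a mean of 4042 ± 622 (SD, n = 4). Its highest library was 3RL, which was the lowest for Nkx2-5, Tbx20 and Hand2.

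**Figure D1:**
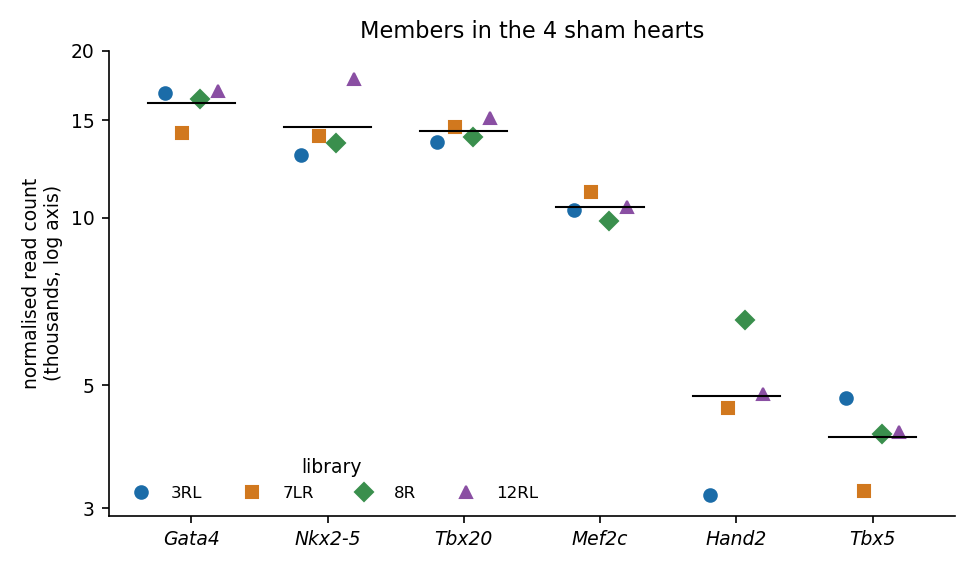
Normalised read counts of the 6 genes in each library (vertical log axis, scaled as its label says), with 1 symbol per library and a line at the mean of the 4. Gata4, Nkx2-5 and Tbx20 lie between 12985 and 17769, and Hand2 has the widest relative range, from 3174 to 6553.

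Each gene had 2613 or more recovered reads in each library, for which counting error alone gives a CV of at most 1.96%. The CV between libraries ran from 4.51% for Tbx20 to 29.1% for Hand2. In tissue RNA, fewer cells of a type and less RNA per cell cannot be told apart.

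Counts were then divided by transcript length, since levels of different genes can be compared only per length. Per kb of the longest spliced UCSC model, Nkx2-5 was highest with 9585 ± 1412 normalised reads per kb (SD, n = 4; model of 1524 bases). It was followed by Gata4 with 4737 ± 373, Tbx20 with 3550 ± 160, Mef2c with 2945 ± 150, Hand2 with 2137 ± 621 and Tbx5 with 1265 ± 195. On this scale Nkx2-5 lay above 95.7% of the loci with a UCSC model and a mean above 0, and Tbx5 above 72.7%. The neighbours in the order that changed places between libraries were Mef2c and Hand2, and Hand2 and Tbx5. Hand2 was above Mef2c in 1 of 4 libraries (8R), and Tbx5 above Hand2 in 1 of 4 (3RL).

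Of the 15 pairs of genes, 13 had 1 order in 4 of 4 libraries. Over all pairs of loci with a UCSC model between the lowest and the highest of these levels the share was 85.0%, so the count for these genes is near the background. The exact two-sided sign-flip test over libraries gave p = 0.13 for each of the 13 pairs, the smallest that 4 libraries allow, and an adjusted p of 0.144 over the 15 pairs (Benjamini-Hochberg). No pair could pass 0.05. The log2 level per kb of Gata4 minus that of Nkx2-5 was -1.01 ± 0.20 (SD, n = 4), and that of Mef2c minus Tbx20 was -0.27 ± 0.07.

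The order per kb depended on the transcript models. Among UCSC models alone, Mef2c passed Tbx20 when the median model replaced the longest, with 4303 against 4096 normalised reads per kb. Assembled models reached beyond the UCSC models by 1 kb or more in 5 of the 6 loci. Over all 13251 loci with a UCSC model and a mean of 50 or more this share was 37.9%. At the 3' end an extension of this size was found in Nkx2-5 (18.8 kb), Tbx20 (7.23 kb) and Mef2c (2.91 kb), where the background is 31.9%. At the 5' end it was found in Gata4 (4.96 kb) and Tbx5 (2.94 kb), where the background is 11.2%. Hand2 had a single model, of 2 exons and 2235 bases, and no extension.

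When all exons of the locus were taken as the length, Hand2 became the highest with 2137 normalised reads per kb. It was followed by Gata4 with 1901 ± 150 (SD, n = 4), Mef2c with 1044 ± 53.3, Tbx20 with 1022 ± 46.1, Tbx5 with 793 ± 122 and Nkx2-5 with 722 ± 106. Nkx2-5 thus moved from the first to the last place. On this scale Gata4 was above Hand2 in 1 of 4 libraries, Nkx2-5 above Tbx5 in 2 of 4 and Mef2c above Tbx20 in 2 of 4. The count of a locus covers the UCSC model and the extension together, and which of them the reads came from cannot be read from the table.

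**Figure D2:**
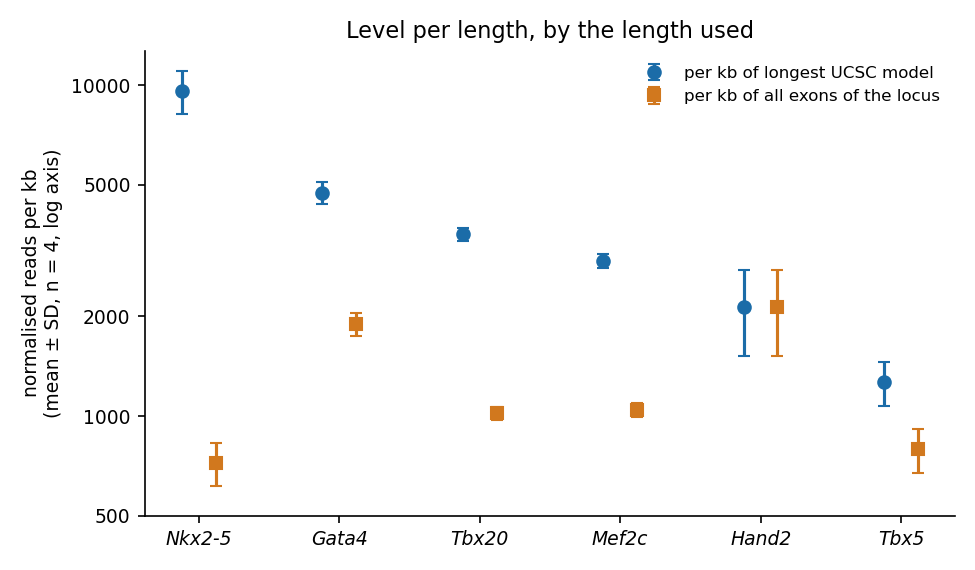
Mean normalised reads per kb ± SD over 4 libraries (vertical log axis), per kb of the longest UCSC model (circles) and per kb of all exons of the locus (squares). Nkx2-5 moves from 9585 to 722, while Hand2 stays at 2137.

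The extensions differ in kind between the genes. In Nkx2-5 an assembled model of 3 exons and 20222 bases has the UCSC first exon and ends 18776 bases beyond the UCSC model, and 92.5% of the exon bases of the locus lie outside the UCSC model. In Tbx20 the assembled model has 8 exons like the longest UCSC model, and its last exon has 9816 bases against 2589. In Mef2c the last exon has 5060 bases in 2 assembled models against 2154 in the UCSC models in which it has the same start.

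Gata4 has 2 assembled models that begin with a first exon of 5066 bases at chr14 63890421 to 63895486 in place of the UCSC first exon of 110 bases at 63863988 to 63864097. A short UCSC model of 2 exons begins inside that long exon, at 63890529. In Tbx5 the assembled model of 10 exons starts 2941 bases upstream of the UCSC model of 9 exons.

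Mef2c had the most models, 13, of which 7 were UCSC models and 6 assembled. They started at chr13 83643194, 83663910, 83663912, 83712776 and 83764760. Mef2c is known for several alternative promoters, and counts per locus do not show how the reads divide among them.

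The spread between libraries split the 6 genes. The SD of log2(count + 1) was 0.06 for Tbx20, 0.07 for Mef2c, 0.12 for Gata4, 0.20 for Nkx2-5, 0.23 for Tbx5 and 0.43 for Hand2. The median of the loci with a UCSC model nearest in mean count (the gene and 250 loci on either side in rank) lay between 0.11 and 0.13 for each of the 6. Tbx20 and Mef2c were thus below the median of loci of like level, 2 of 6 genes where the background is 50%, and Gata4 was close to it. With libraries scaled to equal table totals, the SD was 0.14 for Mef2c and 0.11 for Tbx20, and of the 6 genes Gata4 was then the 1 below its median.

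Hand2 was more spread than 97.8% of the loci nearest to it in mean count, Tbx5 than 89.0% and Nkx2-5 than 85.6%. For Nkx2-5 this rested on 12RL, since the SD without that library was 0.06. For Tbx5 the SD was 0.12 without 7LR, and for Gata4 0.02 without 7LR. Hand2 kept an SD of 0.28 without 3RL, against a local median of 0.13 over the 4 libraries. No single library stood apart by Dixon's ratio at any of the 6 genes, where the background is 4.57% of loci with a UCSC model and a mean of 50 or more.

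Each gene was also set beside the 250 loci on either side in rank of spliced UCSC length, as the log2 deviation of a library from the mean of the 4. Hand2 deviated by 0.50 in 8R and by -0.54 in 3RL, where loci of like length had medians of 0.09 and 0.03. Nkx2-5 deviated by 0.29 in 12RL, where loci of like length had a median of -0.07. Tbx20 and Mef2c stayed within 0.10 of the mean in each library.

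**Figure D3:**
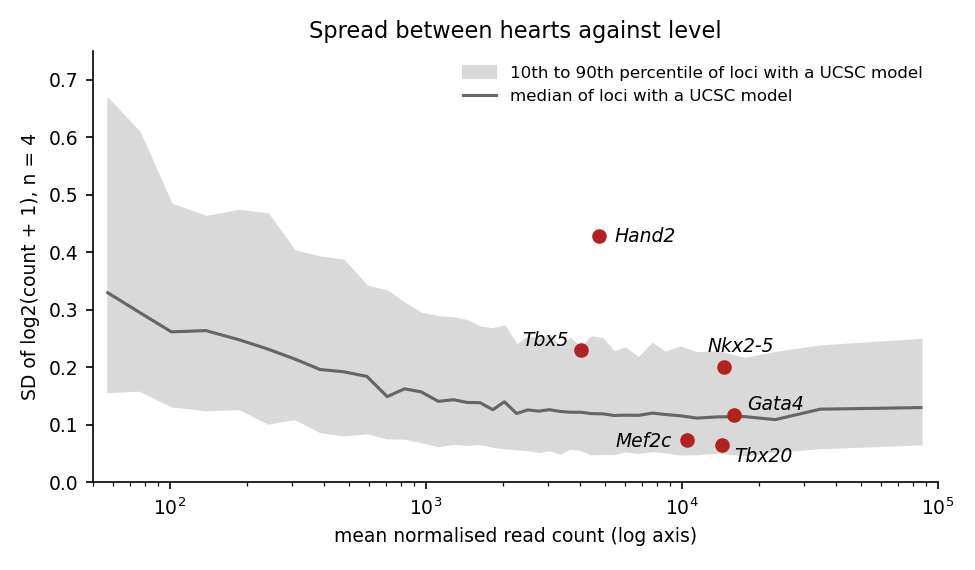
SD of log2(count + 1) over 4 libraries against the mean normalised read count (horizontal log axis). The grey band spans the 10th to the 90th percentile and the line the median of 13251 loci with a UCSC model, and red points are the 6 genes. Hand2 (0.43) lies above the band, while Mef2c (0.07) and Tbx20 (0.06) lie below the line.

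The 6 genes did not share 1 pattern over the libraries. The highest library was 12RL for Gata4, Nkx2-5 and Tbx20, 8R for Hand2, 7LR for Mef2c and 3RL for Tbx5. The lowest was 3RL for Nkx2-5, Tbx20 and Hand2, 7LR for Gata4 and Tbx5 and 8R for Mef2c. Over all loci with a UCSC model and a mean of 50 or more, the highest library was 3RL for 24.7%, 7LR for 17.3%, 8R for 39.8% and 12RL for 18.2%. The lowest library was 3RL for 20.4% of them, 7LR for 30.6%, 8R for 21.2% and 12RL for 27.7%. By the root mean square difference of the log2 deviations over the 4 libraries, Mef2c and Tbx20 were the closest pair (0.06) and Tbx5 and Hand2 the farthest (0.48). This difference grows with spread, which was smallest for Tbx20 and Mef2c and largest for Hand2 and Tbx5. A small value is therefore not a shared pattern: Mef2c was highest in 7LR and Tbx20 in 12RL.

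The 2 loci with a UCSC model and a mean of 50 or more that were most like each gene by this measure are given by position with the difference. For Gata4 they lie at chr8 122604995 to 122625372 (0.01) and chr6 124613146 to 124654197 (0.01). For Nkx2-5 they lie at chr10 127936042 to 127950258 (0.01) and chr5 72689923 to 72898106 (0.02). For Tbx5 they lie at chr18 37480035 to 37483567 (0.01) and chr7 31844275 to 31855954 (0.02). For Hand2, which had the least close ones, they lie at chr9 116084308 to 116104004 (0.04) and chr15 98397755 to 98400014 (0.05). For Mef2c they lie at chr11 53333302 to 53363431 (0.003) and chr5 31252439 to 31257468 (0.01), and for Tbx20 at chrX 23270188 to 23384171 (0.01) and chr1 55294021 to 55305635 (0.01). Close matches were common for the genes with little spread. Of the loci with a UCSC model and a mean of 50 or more, 5.55% lay within 0.05 of Tbx20. The share was 3.72% for Mef2c, 1.61% for Gata4, 0.20% for Nkx2-5, 0.18% for Tbx5 and 0.02% for Hand2. The choice rests on all 4 libraries: of these 12 loci, 1 was still chosen without 8R, and 0 without 3RL, 7LR or 12RL.

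Transcripts on the other strand began at the start of 3 of the 6 genes. An opposite-strand locus whose 5' end lay within 1 kb of the gene's was found for Hand2, Nkx2-5 and Tbx5, where the background is 26.1%, and within 2 kb also for Tbx20, where it is 27.8%. With UCSC models alone the count was 0 of 6, against a background of 19.9%. At Hand2 and Nkx2-5 the partner had no UCSC model, which holds for 3.49% of all loci with a UCSC model and a mean of 50 or more.

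The sequence before the RefSeq start is shown for the genes with such a partner that have a window in the RefSeq promoter table, which were Hand2, Nkx2-5 and Tbx20. Each is the 250 bases before the start on GRCm38.p6, 5' to 3' on the gene's strand, at chr8:57320733-57320982 (plus), chr17:26841566-26841815 (minus) and chr9:24774304-24774553 (minus). Capitals mark motif matches, searched on both strands: the letters AGATAA for a GATA factor, the letters TNAAGTG for an NK2 factor, the letters AGGTGT for a T-box factor, the letters CANNTG for an E-box, the letters AAAATAG for a MEF2 factor and the letters TATAAA for a TATA box.
Hand2: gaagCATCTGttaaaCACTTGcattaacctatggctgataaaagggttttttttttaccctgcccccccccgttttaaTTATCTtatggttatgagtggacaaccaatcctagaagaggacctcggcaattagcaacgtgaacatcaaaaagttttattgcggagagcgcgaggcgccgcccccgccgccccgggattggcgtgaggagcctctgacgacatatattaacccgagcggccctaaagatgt
Nkx2-5: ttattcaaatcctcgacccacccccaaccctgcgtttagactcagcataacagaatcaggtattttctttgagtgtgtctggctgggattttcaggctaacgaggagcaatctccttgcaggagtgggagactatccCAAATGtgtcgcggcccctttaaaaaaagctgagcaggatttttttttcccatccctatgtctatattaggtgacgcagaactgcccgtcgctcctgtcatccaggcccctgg
Tbx20: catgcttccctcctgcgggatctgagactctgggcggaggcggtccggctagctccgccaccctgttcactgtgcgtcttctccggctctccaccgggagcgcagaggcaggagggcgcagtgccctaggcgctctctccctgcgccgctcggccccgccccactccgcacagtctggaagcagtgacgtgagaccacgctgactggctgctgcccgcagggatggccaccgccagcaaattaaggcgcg

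The Hand2 window held 2 E-box matches and 1 GATA match on the other strand. The Nkx2-5 window held 1 E-box match, and the Tbx20 window held none of the 6 motifs. No matches overlapped each other. Over 32851 promoter windows of 250 bases, 66.2% held an E-box match, 9.99% a GATA match, 11.8% a T-box match, 10.1% an NK2 match, 3.89% a MEF2 match and 12.4% a TATA box match. The Tbx20 window was 68.8% G and C, against 49.2% in Hand2 and in Nkx2-5 and a median of 52.4% over all windows. Of the 3 Mef2c windows, 1 held a T-box match and 2 a TATA box match, each TATA box match on the other strand. The Mef2c window that starts at chr13 83503784 held 2 E-box matches and that at 83573357 held 1. A match describes these letters only.

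The most abundant partner lay at Hand2, at chr8 59782978 to 59799866 on the minus strand, and had higher counts than Hand2 itself. It had 6957 normalised read counts (3RL), 8445 (7LR), 9269 (8R) and 8617 (12RL), with a mean of 8322 ± 977 (SD, n = 4). Relative to Hand2 this was 219%, 186%, 141% and 178% in the same libraries. The count was above that of Hand2 in 4 of 4 libraries, which was so for 6 of 466 such partners without a UCSC model (1.29%). Per length the order depended on the model: the ratio to Hand2 was 0.93 per kb of all exons and 1.42 per kb of the longest model.

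This locus has 5 models with up to 6 exons, and 87 of its exon bases overlap exon bases of Hand2. On GRCm38 RefSeq lists the noncoding genes Hand2os1 and Hdnr beside Hand2. Of the introns of the minus-strand locus, 7 of 7 have a length found in GENCODE's Hand2os1, as have 5 of 6 internal exons. Hand2os1, also called upperhand, is known as a noncoding transcript that runs away from the Hand2 promoter and spans cardiac enhancers.

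The partner of Nkx2-5 lies at chr17 26978415 to 27027960 on the plus strand. Its counts were 248 (3RL), 296 (7LR), 159 (8R) and 399 (12RL), which is 1.86% ± 0.48 of Nkx2-5 (SD, n = 4). It has 7 models, and its 5' end lies 95 bases inside the Nkx2-5 locus. Of its 46262 exon bases, 32817 (70.9%) are shared with other loci, and loci made of shared bases alone were at 0 here, so this percentage may leave out reads from most of its exons.

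The partner of Tbx5 lies at chr5 120255338 to 120284762 on the minus strand and is the other locus with a UCSC model in the Tbx5 interval. It had 885 counts (3RL), 687 (7LR), 805 (8R) and 711 (12RL), or 19.2% ± 1.70 of Tbx5 (SD, n = 4). The nearest 5' ends lie 69 bases apart, and 1081 exon bases are shared between the loci.

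The partner of Tbx20 lies 1365 bases upstream, at chr9 24580271 to 24600925 on the plus strand, with 21.5 counts (3RL), 34.2 (7LR), 26.1 (8R) and 29.96 (12RL). That is 0.19% ± 0.03 of Tbx20 (SD, n = 4). It shares no exon base with Tbx20.

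The 3 pairs within 1 kb were highest in the same library: Hand2 and its partner in 8R, Nkx2-5 and its partner in 12RL, and Tbx5 and its partner in 3RL. Of 1444 such pairs with a mean of 50 or more in both loci, 35.5% were. Hand2 and Tbx5 also shared the lowest library with their partners (3RL and 7LR), as 33.6% of all pairs did, and 16.0% of all pairs shared both. Nkx2-5 was lowest in 3RL and its partner in 8R. With equal table totals, or without 3RL, the count of pairs highest in the same library was 2 of 3. Whether the counting used strand is not given in the sources used here. Loci with all exon bases shared were at 0, such as the one at chr8 59810399, which overlaps a locus on the opposite strand. Reads from bases that a gene and its partner share may thus be absent from both counts.

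**Figure D4:**
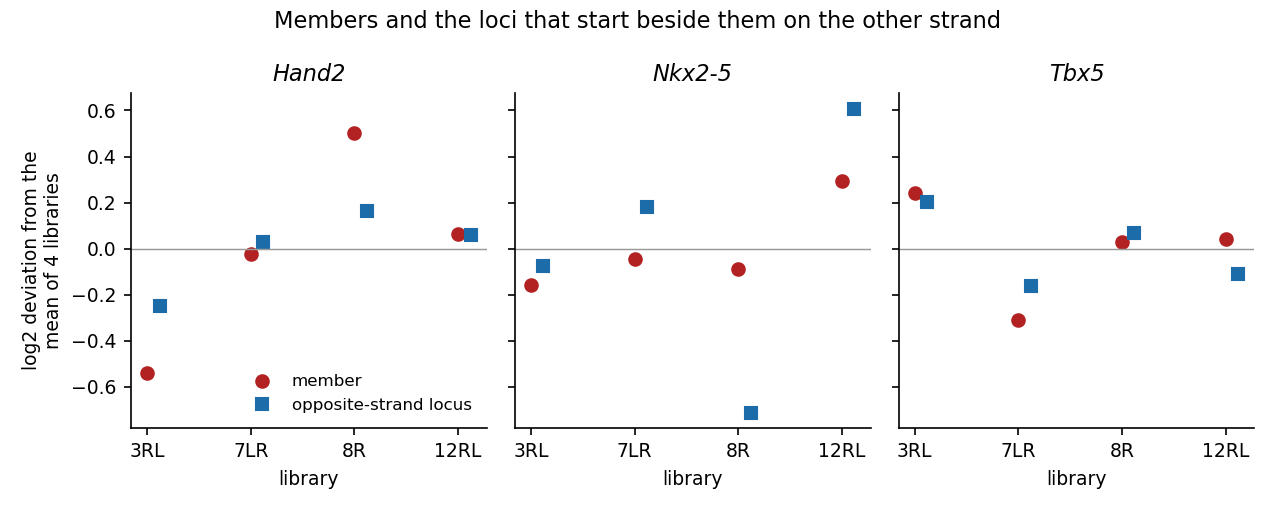
Log2 deviation of each gene (red circles) and of the opposite-strand locus that starts beside it (blue squares) from its mean over the 4 libraries, by library. Each pair has its highest point in the same library: 8R for Hand2, 12RL for Nkx2-5 and 3RL for Tbx5.

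Loci that overlap others bear on these counts. Among loci without a UCSC model, 211 of 211 whose exon bases are all shared with another locus were at 0 in the 4 libraries, and so were 136 of 136 such loci with a UCSC model. Of loci without a UCSC model that share no exon base, 1.35% were at 0, and of those with a UCSC model 33.8%. The shared part is 3.89% of the exon bases of Hand2, 0.475% of Nkx2-5, 21.2% of Tbx5 and 0 in Gata4, Mef2c and Tbx20. Per kb of exon bases that no other locus overlaps, Tbx5 stood at 1007 normalised reads per kb against 793 per kb of all exons. On that scale Tbx5 was above Mef2c in 2 of 4 libraries and above Tbx20 in 2 of 4. Nkx2-5 was above Tbx5 in 0 of 4.

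Within 50 kb of the 6 loci there were 23 loci without a UCSC model. Each of the 6 genes had at least 1, where the background is 49.1%, and 53.3% among loci nearest to the 6 in mean count. The window includes the span of the locus, which runs from 3.54 kb (Hand2) to 164 kb (Mef2c). Gata4 had 7 such neighbours, Hand2 6, Nkx2-5 5, Mef2c and Tbx20 2 each and Tbx5 1. Of the 23, 7 had more than 1 exon, 12 had a mean of 10 or more and 2 were at 0 in all libraries.

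Upstream of Gata4, a spliced locus on the other strand at chr14 63913953 to 63964437 began 18.5 kb from the Gata4 locus. It had 2007 counts (3RL), 2937 (7LR), 2226 (8R) and 2245 (12RL), with a mean of 2354 ± 404 (SD, n = 4), which was 14.6% of the mean of Gata4. It had 7 models of up to 7 exons, and among the 23 it came after the partner of Hand2 in mean count.

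The 7 loci without a UCSC model near Gata4 were all upstream of it and all highest in 7LR, the library in which Gata4 was lowest. Over the 8844 loci without a UCSC model and with a mean above 0, 33.1% were highest in 7LR. Of loci with a UCSC model and a mean of 50 or more, 30.6% were lowest in 7LR. Of the 7, 4 are single-exon loci inside the span of the spliced one. The one at 63944558 to 63947736 had 74.0 counts (3RL), 252 (7LR), 155 (8R) and 153 (12RL). The others had low counts, with means of 13.4 at 63924660, 7.08 at 63910412, 4.83 at 63920055 and 4.10 at 63930152, and the last had 0.85.

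**Figure D5:**
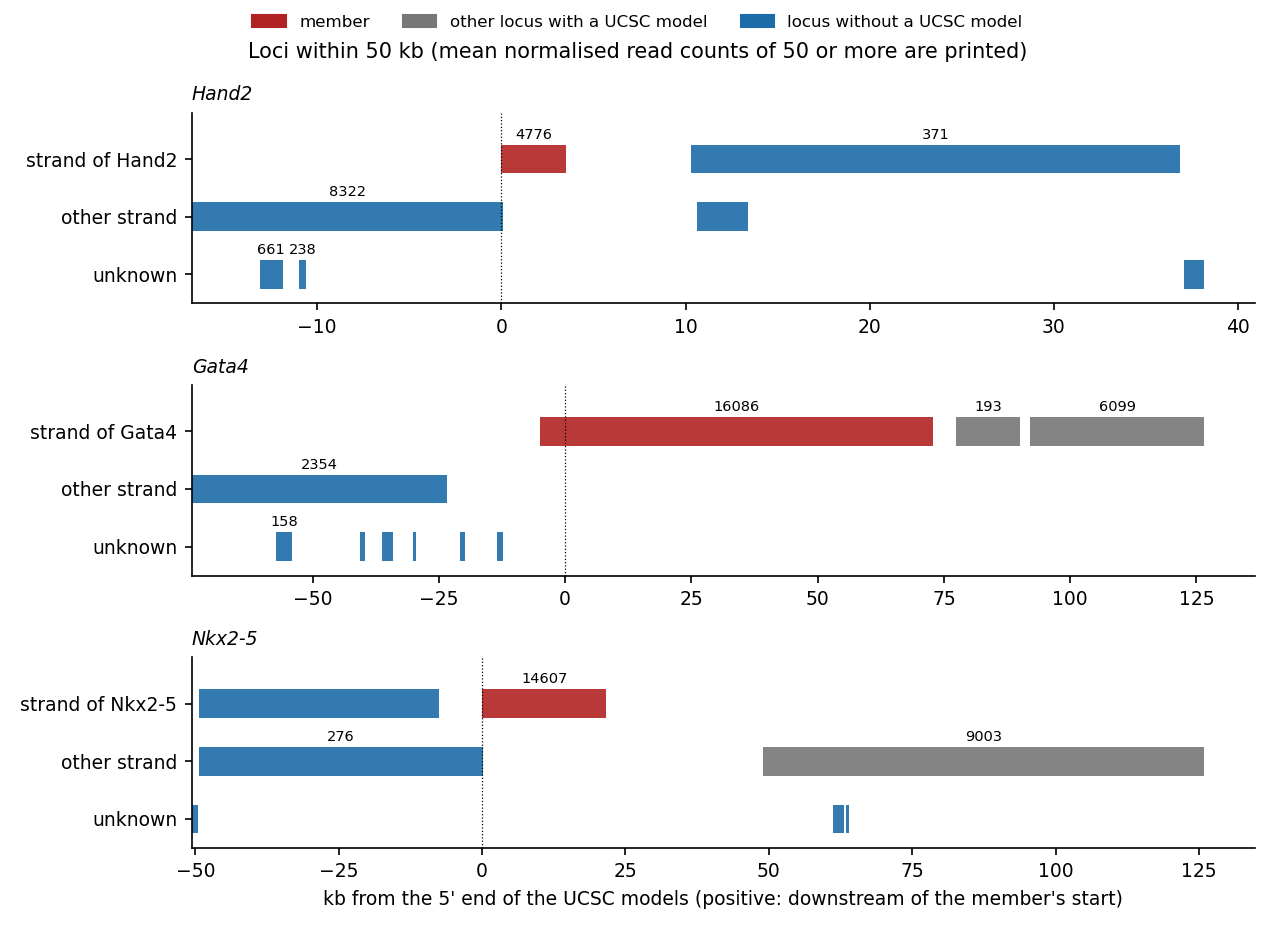
Loci within 50 kb of Hand2, Gata4 and Nkx2-5 by distance in kb from the 5' end of the gene (horizontal axis) and by strand, with mean normalised read counts of 50 or more printed. The locus of 8322 counts meets Hand2 at its start, and that of 2354 counts lies upstream of Gata4.

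Around Hand2 the neighbours formed an upstream and a downstream group. Upstream, 2 single-exon loci lie inside the span of the minus-strand partner. The one at chr8 59786656 to 59787915 had 383 counts (3RL), 859 (7LR), 757 (8R) and 646 (12RL). The one at 59788765 to 59789179 had 153 (3RL), 320 (7LR), 221 (8R) and 257 (12RL). Like Hand2 and the partner, both were lowest in 3RL, as were 32.3% of all loci without a UCSC model and with a mean of 10 or more.

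Downstream of Hand2 a spliced locus on its strand, at chr8 59810104 to 59836643, had 334 counts (3RL), 424 (7LR), 311 (8R) and 413 (12RL). Its lowest library was 8R, the highest of Hand2. Of its 8 introns, 5 have a length found in GENCODE's 5033428I22Rik, a RefSeq synonym of Hdnr, and so have 2 of 5 internal exons. Hdnr, also called handsdown, is known as a noncoding gene downstream of Hand2. A locus on the other strand inside its span, at 59810399 to 59813167, has all its exon bases shared and was at 0 in all libraries. A single-exon locus at 59836867 had a mean of 5.93.

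Around Nkx2-5 the other spliced locus, at chr17 26986084 to 27027976 on the strand of Nkx2-5, was also at 0 in all libraries, and 32721 of its 32739 exon bases are shared. Both loci at 0 are named here because of that value. The 3 single-exon loci near Nkx2-5 had means of 13.4 at 27028148, 10.04 at 26915452 and 3.30 at 26914565. Near Tbx20 the locus at chr9 24618083 had a mean of 12.1. The 2 loci near Mef2c, at chr13 83619860 and 83815969, had means of 2.32 and 1.25, and the one near Tbx5, at chr5 120269650, had 2.06.

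Other loci with a UCSC model within 50 kb differed widely in level, and are given because they border the genes. Beside Gata4 on its strand lay a locus with 193 ± 32.6 counts at chr14 63800511 to 63813041 and one with 6099 ± 168 at 63763988 to 63798415 (SD, n = 4). A locus at chr17 26852595 to 26929466, on the strand opposite to Nkx2-5, had 9003 ± 934. Tbx20, at 14351 counts, lay 19684 bases from a locus of 22 exons at chr9 24361497 to 24500737 with a mean of 1.85. RefSeq lists Fdft1 and Neil2 beside Gata4, Bnip1 beside Nkx2-5 and Dpy19l2 beside Tbx20 on GRCm38, and these names were not assigned to loci.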

How the data were processed

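Poly(A) RNA of 4 heart samples labelled Sham was sequenced, and 1 table of locus values and 1 set of transcript models on mm9 were used. The deposited signal values are read counts of each locus, which the authors had scaled by a size factor for the library. All values were whole reads within 0.001 when multiplied by that factor (100% in each library), which gave 108345923 to 160670654 recovered reads. The submitters' processing notes name mm9 as build, and DESeq, HTSeq 0.5.4p2, Cufflinks 2.0.2 and TopHat2 2.0.5 as tools. Strandedness, how HTSeq treated overlaps, and the libraries behind the assembled models were not given in the sources used here.

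From these, means, SDs, values per kb, Dixon's ratio (0.829 for 4 values) and exact two-sided sign-flip tests were computed in Python 3.11.15 (numpy 2.4.6, pandas 2.3.3, scipy 1.17.1), and TMM factors and dispersions in R 4.3.3 with edgeR 4.0.16. Spread used log2(value + 1). No count test between groups could be run, since there is 1 group. Background loci had a UCSC model and a mean of 50 or more, except where stated. A locus without a UCSC model was a neighbour within 50 kb. Named loci were the 6 genes, other UCSC loci in their intervals, the 20 neighbours with the highest means (of the other 3, the 2 at 0 are also given by position, chosen after their values were seen), and the 2 loci most like each gene. Members, lists and rules were chosen with earlier results of these data known. Alternatives covered length, scaling, pseudocount, windows and leaving out each library. The spread measure was also run on simulated counts in which some loci were raised in 1 library. The likeness measure was run on planted near copies of a locus, which it could hardly miss. That run does not bear on the likeness found between loci here. Promoter sequences are from RefSeq on GRCm38.p6, in which 4 of the 6 genes had a window. No coordinates were converted between builds.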

Additional observations from a re-analysis of the deposited data

Results flagged for a closer look

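At the single-exon locus upstream of Gata4 that starts at chr14 63930152, library 7LR stood apart from the other 3. It had 14.8 normalised read counts there, against 0 in 3RL, 0 in 8R and 1.58 in 12RL. Chance alone marks about 5% of groups of 4 normally distributed values in this way, and 4.57% of loci with a UCSC model and a mean of 50 or more were marked. This locus has no UCSC model and a mean of 4.10, near the floor, so neither share is its background. It was found among the 23 neighbours looked at. None of the 6 transcription factor genes was marked.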

How the results depend on the processing

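Of 162 alternative values, 131 stayed close to the reported value and 31 moved. Some could hardly move: scalings kept the same geometric mean, pseudocounts were small beside these counts, and most intervals held a single candidate locus. For Nkx2-5, Tbx5 and Hand2 the median UCSC model is also the longest. The SD of log2 of Hand2 counted as close at 0.33 without 8R, against 0.43. The split is thus not a measure of how firm the results are. Per kb of all exons the levels were 1901 (Gata4), 722 (Nkx2-5), 793 (Tbx5), 1044 (Mef2c) and 1022 (Tbx20). Per kb of exon bases that no other locus overlaps, an alternative added after seeing the data, they were 1901, 726, 1007, 1044 and 1022. Per kb of the median UCSC model they were 4303 for Mef2c and 4096 for Tbx20. Equal table totals shift each locus with reads by the same amount, -0.10 (log2) in 8R and 0.07 in 7LR. With equal table totals the SD of log2 was 0.14 for Mef2c and 0.11 for Tbx20, and 1 gene was below its local median. Leaving out each library in turn gave an SD of log2 of 0.0243 to 0.142 for Gata4, 0.0566 to 0.243 for Nkx2-5, 0.121 to 0.281 for Tbx5, 0.282 to 0.525 for Hand2 and 0.0452 to 0.0896 for Mef2c. The lowest values came without 7LR for Gata4, Tbx5 and Mef2c, without 12RL for Nkx2-5 and without 3RL for Hand2. Of the 12 loci most like the genes, 0 to 1 were chosen again when a library was left out. With a pseudocount of 10 the number was 10, and with equal table totals 12. The 23 neighbours became 8 within 10 kb, 35 within 100 kb, 12 with a mean of 10 or more and 7 with more than 1 exon, and the background share was 28.6% within 10 kb. With UCSC models alone 0 genes had an opposite-strand start within 1 kb. At a threshold of 5 kb, with assembled models included, 2 genes had an extension beyond the UCSC models. Apart from the windows, lengths, scalings and left-out libraries themselves, the cause was not tested. No paired analysis was possible because the study holds a single group. With 4 libraries of 1 group, SDs are loose and no exact test can pass 0.05.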
